A study of Homo sapiens with 24 samples.

Results

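The type I interferon-stimulated genes described here are 47 genes chosen by name, with earlier results of these data known. They were found by matching their symbols to the rows of the deposited count table. All 47 were among its 26364 genes, and all 47 were among the 15757 genes that passed the filter on low counts and were tested. They were measured by RNA sequencing in nTERT-1 cells, an immortalised human keratinocyte line, in 24 libraries of polyadenylated RNA. The study's title asks how the lysine acetyltransferase paralogs KAT2A and KAT2B act in keratinocyte stemness and differentiation. Its 12 groups of 2 libraries combine 4 genotypes, the control labelled NT and the knockdowns KAT2A_KD, KAT2B_KD and KAT2AB_KD (both genes), with 3 culture stages, Subconfluent, Confluent and Differentiated, the last being day 4 in the deposited sample table. Every group carries the same label for treatment, keratinocyte differentiation. How the knockdowns were made, what NT stands for, and whether the 2 libraries of each group were grown separately are not given in the sources used here, so p-values measure only the spread between libraries, which may be technical.

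Type I interferons are secreted proteins that bind a receptor made of IFNAR1 and IFNAR2. The receptor's kinases activate signal carriers, STAT2 among them, that join IRF9 in the complex ISGF3, and ISGF3 binds a short promoter element with a repeated GAAA core, the interferon-stimulated response element. The genes switched on this way include RNA sensors, enzymes that degrade or trap foreign RNA, antiviral GTPases, membrane proteins that hold back enveloped viruses, and the ubiquitin-like protein ISG15 with the enzymes that attach it. Keratinocytes both respond to type I interferon and make some of it themselves, among others interferon kappa.

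The core of that element was looked for in the RefSeq promoter windows of GRCh38.p14, 300 bases long, from 250 before to 50 after each gene's start. A window was found for 37 of the 47 members. The motif searched was GAAA, any 2 bases and GAAA again, on both strands, with overlapping matches counted. It was present in a window of 26 of the 37 members (70.3%), against 3.57% of all 35116 windows and 4.38% of the 27305 genes in the table, and 15 members held at least 2 matches in a window. A match is a description of these letters and not a measured binding site. The 160 bases before the start are shown for 8 members with matches, drawn from different roles, and for SP100, a member without a match whose level before differentiation differed little between genotypes. They are written 5′ to 3′ on the gene's strand with the matches in capitals, and those on the other strand read as TTTC, any 2 bases and TTTC.
IFI6 (chr1:27672193-27672352, minus strand): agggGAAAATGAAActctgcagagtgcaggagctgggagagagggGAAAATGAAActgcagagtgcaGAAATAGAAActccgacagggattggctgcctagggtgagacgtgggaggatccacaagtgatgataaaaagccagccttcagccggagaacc
ISG15 (chr1:1013337-1013496, plus strand): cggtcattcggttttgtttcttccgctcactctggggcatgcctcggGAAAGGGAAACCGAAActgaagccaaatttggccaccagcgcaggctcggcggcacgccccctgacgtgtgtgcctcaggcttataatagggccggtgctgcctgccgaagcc
BST2 (chr19:17405631-17405790, minus strand): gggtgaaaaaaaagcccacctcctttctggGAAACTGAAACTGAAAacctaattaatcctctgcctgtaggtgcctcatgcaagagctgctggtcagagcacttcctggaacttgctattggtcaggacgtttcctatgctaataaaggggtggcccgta
IFIT1 (chr10:89392463-89392622, plus strand): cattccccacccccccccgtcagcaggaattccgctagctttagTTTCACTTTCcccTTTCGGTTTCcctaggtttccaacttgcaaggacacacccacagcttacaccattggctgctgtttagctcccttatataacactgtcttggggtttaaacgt
IFI27 (chr14:94110576-94110735, plus strand): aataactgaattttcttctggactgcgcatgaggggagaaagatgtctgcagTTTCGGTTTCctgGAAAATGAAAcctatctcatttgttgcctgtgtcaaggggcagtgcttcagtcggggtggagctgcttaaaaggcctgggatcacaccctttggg
DDX60 (chr4:168318753-168318912, minus strand): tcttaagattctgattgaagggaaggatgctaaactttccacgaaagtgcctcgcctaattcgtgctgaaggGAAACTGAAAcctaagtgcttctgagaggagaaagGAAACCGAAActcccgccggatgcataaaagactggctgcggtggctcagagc
EPSTI1 (chr13:42992242-42992401, minus strand): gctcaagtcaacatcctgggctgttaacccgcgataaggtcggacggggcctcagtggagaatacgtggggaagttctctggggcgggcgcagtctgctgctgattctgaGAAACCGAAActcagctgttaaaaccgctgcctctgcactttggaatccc
IFI44L (chr1:78620288-78620447, plus strand): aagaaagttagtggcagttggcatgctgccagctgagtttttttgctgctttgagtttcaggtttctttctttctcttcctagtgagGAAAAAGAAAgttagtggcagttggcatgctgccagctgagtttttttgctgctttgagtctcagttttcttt
SP100 (chr2:230416041-230416200, plus strand): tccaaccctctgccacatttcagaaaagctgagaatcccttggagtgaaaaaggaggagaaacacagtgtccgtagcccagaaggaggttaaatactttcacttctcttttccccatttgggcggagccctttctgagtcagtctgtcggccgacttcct
ISG15 and BST2 hold 2 overlapping matches, IFI6 holds 3 separate ones, both matches of IFIT1 and 1 of the 2 of IFI27 read on the strand opposite to the gene, and EPSTI1 and IFI44L show a single match in the bases printed (the whole windows of IFI44L hold 2).

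Values are given in CPM, the counts scaled to a common library size with TMM factors, and log2 fold changes, their standard errors (SE) and adjusted p-values come from one edgeR quasi-likelihood fit over all 24 libraries, with Benjamini-Hochberg adjustment over all genes tested. The threshold for passing was an adjusted p of 0.05. Levels are compared between libraries and never between genes, since no gene lengths were used. Library totals ran from 8010178 to 16054003 counts. KAT2A stood at 3.03 to 5.06 CPM in the 6 KAT2A_KD libraries and 9.995 to 38.5 in the 6 NT libraries, and KAT2B at 0.152 to 8.59 CPM in KAT2B_KD and 4.06 to 44.8 in NT. In the libraries labelled as its knockdown, KAT2AB_KD included, each target gene lay under the 2 stage-matched NT libraries, although not each of these differences passed (KAT2A in KAT2A_KD at Differentiated, adjusted p = 0.139, and KAT2B in KAT2B_KD at Subconfluent, adjusted p = 0.0689, by the same edgeR test). The 7 keratinocyte markers summed to 15842 to 61815 CPM in every library, and CD3E, CLEC4C, TYR and CDH5, markers of T cells, plasmacytoid dendritic cells, melanocytes and endothelial cells, had 0 reads in all 24 libraries. Other genes of these lists were read, among them PMEL (590 reads), VWF (152) and IL3RA (132). The melanocyte list summed to at most 1.94 CPM before differentiation and 3.05 to 8.39 CPM at Differentiated. The endothelial list summed to at most 0.392 CPM before differentiation and 0.377 to 3.46 CPM at Differentiated. The plasmacytoid dendritic list reached at most 1.53 CPM in a library. The 7 leukocyte markers, 8222 of whose reads were CD68, summed to 16.5 to 27.2 CPM before differentiation and 32.1 to 70.7 CPM at Differentiated, and the 6 fibroblast markers, 4285 of whose reads were COL1A1, to 1.14 to 7.34 and 31.5 to 53.3 CPM. In NT the leukocyte markers stood at 17.4 to 18.1 CPM at Confluent, near the 16.5 to 18.1 at Subconfluent, and at Differentiated they stood at 41.4 to 50.3 CPM in NT and 65.0 to 67.0 in KAT2A_KD. The part of any of these lists in the results was not tested. In bulk RNA, more cells with an active gene and more RNA per cell cannot be told apart.

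The members were at their highest in the control cells at confluence. Taking the mean of log2(CPM + 0.5) over the 47 members as the level of a library, the NT Confluent libraries stood at 5.41 and 5.71, and the highest among the remaining 22 libraries stood at 4.89. Both NT Confluent libraries were above all the other 22 libraries in 32 of the 47 members, a share that was not counted over all genes. The members held 0.319% and 0.418% of all raw counts there, and 0.0743% to 0.232% elsewhere. In the level of the members these 2 libraries stand apart, and every comparison with NT at Confluent rests on them.

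The next highest group was KAT2A_KD at Differentiated, with levels of 4.89 and 4.74. Below it came NT at Subconfluent (4.09 and 3.87). The KAT2AB_KD Differentiated libraries differed from each other more than those of any other group (3.46 and 4.42, a gap of 0.96) and spanned the levels of the groups around them. KAT2AB_KD at Confluent (3.78 and 3.80), NT at Differentiated (3.76 and 3.53), KAT2AB_KD at Subconfluent (3.54 and 3.51) and KAT2A_KD at Confluent (3.53 and 3.51) followed, all between 3.51 and 3.80. The lowest groups were KAT2B_KD at Differentiated (3.55 and 3.16), KAT2B_KD at Confluent (3.17 and 3.38), KAT2A_KD at Subconfluent (3.09 and 3.20) and KAT2B_KD at Subconfluent (2.84 and 2.82). Before differentiation each knockdown library was thus below all 4 NT libraries of the Subconfluent and Confluent stages. No test was made of this summed level.

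**Figure D1:**
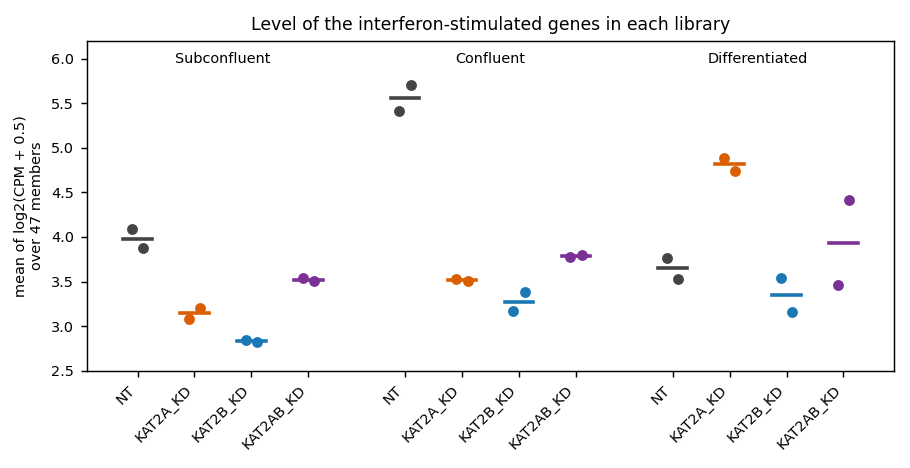
Level of the 47 members in each of the 24 libraries, as the mean of log2(CPM + 0.5) over members. Points are libraries and bars the mean of the 2 libraries of a group; the NT Confluent libraries (5.41 and 5.71) lie above all others, and those of KAT2A_KD at Differentiated (4.89 and 4.74) come next.

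The pattern was shared by most members but not by all. The highest of the 24 libraries was an NT Confluent library for 35 members and a KAT2A_KD Differentiated library for 6, shares that were also not counted over all genes. The map of all members by library shows the broad NT Confluent band, and shows a set of genes, IFI6, IFI27, BST2 and SAMD9 among them, that were also high in differentiated cells. SP100, a component of nuclear bodies, varied little before differentiation.

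**Figure D2:**
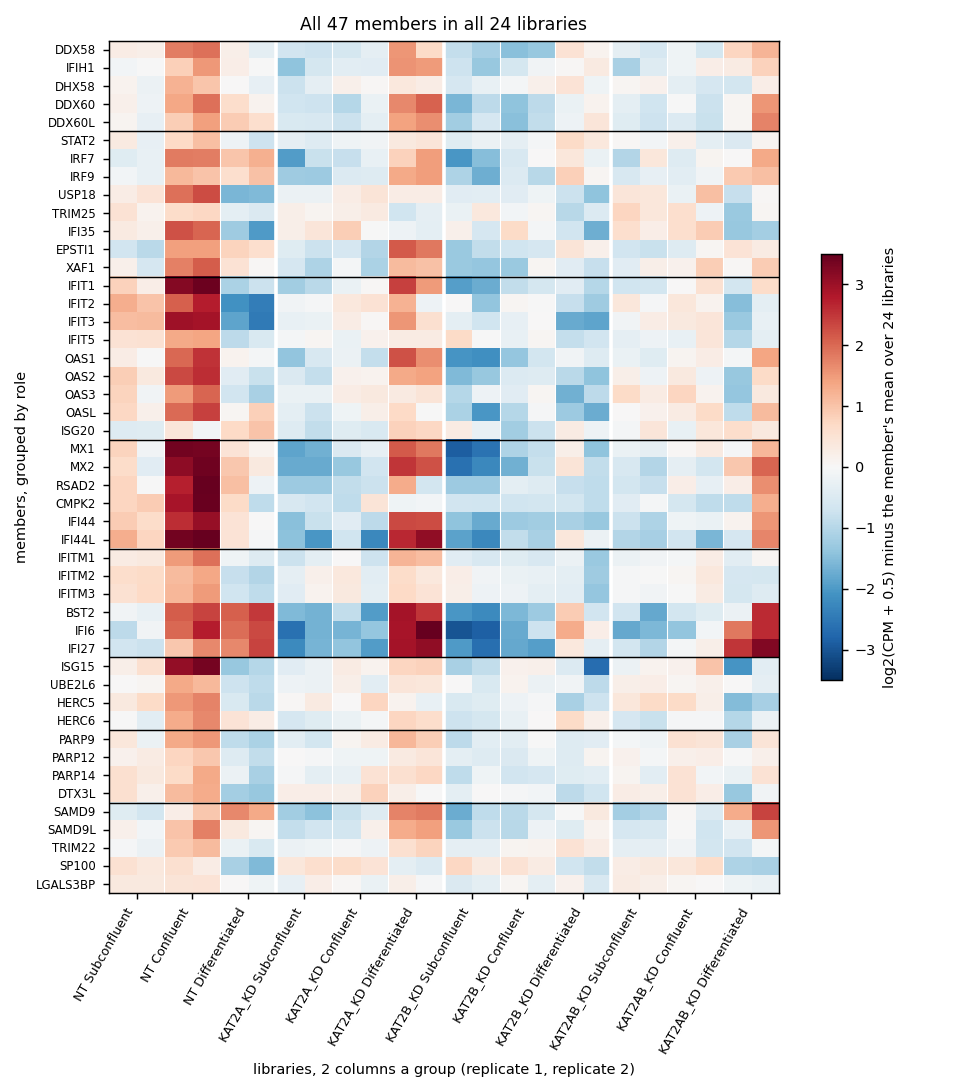
All 47 members (rows, grouped by role and separated by black lines) in all 24 libraries (columns, 2 a group, grouped by genotype). Colour is log2(CPM + 0.5) minus the member's mean over the 24 libraries, red above and blue below; for 35 members the highest library is one of the 2 NT Confluent columns.

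In NT cells, 22 of the 47 members rose from Subconfluent to Confluent and 0 fell, where 0.901% of all tested genes passed (0.685% higher and 0.216% lower). The median log2 fold change of the members was 1.43, against 0 for all genes tested. Both Confluent libraries were above both Subconfluent libraries for 46 of the 47 members, as was the case for 22% of all genes. By role, 2 of 5 sensors, 5 of 8 signalling and transcription genes, 4 of 9 effectors acting on RNA, 4 of 6 GTPases and enzymes of nucleotides and lipids, 3 of 6 membrane and mitochondrial proteins, 3 of 4 genes of ISG15 conjugation, 0 of 4 genes of ADP-ribosylation and 1 of 5 other restriction and secreted proteins rose. DESeq2 called 30 members. The edgeR count was 16 without NT Confluent replicate 1, 7 without NT Confluent replicate 2, 5 without NT Subconfluent replicate 1 and 6 without NT Subconfluent replicate 2.

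EPSTI1, an interferon-induced protein first described in epithelial cells beside stroma, stood at 2.58 and 2.06 CPM in the Subconfluent NT libraries and at 12.9 and 13 at Confluent. The groups did not overlap, and the log2 fold change was 2.47 (SE 0.30, adjusted p = 0.000208 by edgeR). MX1, a GTPase that blocks the nucleocapsids of RNA viruses, went from 58.0 and 31.3 CPM to 353 and 350 CPM, a log2 fold change of 2.97 (adjusted p = 0.000630). Its 2 Subconfluent libraries differed from each other more than its Confluent ones did. MX2, its relative, rose by 3.12 log2 (14.4 and 6.87 to 84.5 and 102 CPM), IFIT1, which binds the cap of foreign RNA, by 2.83 log2 (12.4 and 8.16 to 67.4 and 78.9 CPM), and HERC6, of the HERC family of ubiquitin and ISG15 ligases, by 1.70 log2 (19.6 and 15.2 to 49.5 and 63.8 CPM). For these 5 genes the groups did not overlap, and each still passed when any 1 of the 4 libraries was left out (largest adjusted p = 0.0408).

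From Confluent to Differentiated, 38 members fell and 1 rose in NT cells. Of all genes 26.1% fell and 24.3% rose in this comparison, so calls are common in either direction, and the members' calls lay almost wholly on one side. Their median was -1.95 log2, against -0.01 for all genes. IFIT3, a partner of IFIT1, went from 82.3 and 79.2 CPM to 2.45 and 1.41 CPM, a fall of 41.3-fold (log2 fold change -5.37, SE 0.39, adjusted p = 1.27e-09 by edgeR). IFIT1 reached 2.89 and 3.87 CPM (log2 fold change -4.44), USP18, the protease that removes ISG15 and restrains the receptor, went from 17.7 and 22.4 to 1.05 and 1.13 CPM (log2 fold change -4.19), and IFI35 from 66.7 and 58.8 to 5.52 and 3.11 CPM (log2 fold change -3.85). SP100 also fell, from 144 and 119 to 44.5 and 33.6 CPM (log2 fold change -1.75). In all of these the Differentiated libraries were far below the Confluent ones, and the calls held without any 1 library.

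The member that rose was SAMD9, a cytoplasmic restriction factor against poxviruses, at 38.3 and 63.4 CPM at Confluent and 107 and 83.2 CPM at Differentiated (log2 fold change 0.90, adjusted p = 0.0230 by edgeR). This call was lost without NT Confluent replicate 1 or NT Differentiated replicate 1 (adjusted p up to 0.236). The members that did not pass were IFI6, IFI27, ISG20, IRF7, IRF9, BST2, DDX60L and LGALS3BP. IFI27, a small mitochondrial protein, stood at 86.5 and 146 CPM at Confluent and 144 and 235 at Differentiated, with overlapping libraries.

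Differentiated NT cells compared with Subconfluent ones had 8 members higher and 18 lower. Together these are 26 of 47 members in a comparison in which 50.4% of all genes passed (24% higher and 26.5% lower), so that the number of calls is near the background. The direction divided the members by gene. The 8 that rose were IFI6, IFI27, BST2, SAMD9, EPSTI1, IRF7, IRF9 and the exonuclease ISG20. IFI27 rose by 2.80 log2 from 28.1 and 26.4 to 144 and 235 CPM, and IFI6, another mitochondrial protein, by 2.62 log2 from 28.4 and 50.1 to 211 and 270 CPM. BST2, the tetherin that holds budding virus particles at the membrane, rose by 2.82 log2 from 1.65 and 1.46 to 9.55 and 12.5 CPM.

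Of the same comparison, IRF9, the DNA-binding subunit of ISGF3, went from 23.9 and 21.0 to 38.5 and 52.4 CPM (log2 fold change 1.02), and IRF7, the factor that amplifies interferon production, from 7.66 and 8.50 to 20.8 and 25.4 CPM (1.52, lost without NT Differentiated replicate 2 or NT Subconfluent replicate 1, adjusted p up to 0.0707 by edgeR). SAMD9, EPSTI1 and ISG20 rose by 2.07, 1.67 and 1.41 log2. Among the 18 that fell, IFIT3 went from 21.8 and 22.2 to 2.45 and 1.41 CPM (log2 fold change -3.5), IFIT2 from 8.46 and 6.87 to 0.350 and 0.189 CPM (-4.77), and SP100 from 142 and 127 to 44.5 and 33.6 CPM (-1.79). IFIT1 and IFIT5 also fell over this interval. Apart from IRF7, and from IFIT1 and IFIT5, for which it was not examined, each of these named calls held without any 1 library.

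At Confluent, all 3 knockdowns had much lower interferon-stimulated genes than NT. The comparisons share the same 2 NT libraries, so they are not independent, and each is given with its own values. In KAT2A_KD 30 members were lower and 0 higher (0.647% of all genes passed, 0.381% lower and 0.267% higher), with a median of -1.76 log2 against 0.00 for all genes. In KAT2B_KD 34 were lower and 0 higher (0.463% of all genes, 0.393% lower and 0.0698% higher), with a median of -2.12. In KAT2AB_KD 32 were lower and 0 higher (2.28% of all genes, 0.888% lower and 1.39% higher), with a median of -1.63. Both knockdown libraries were below both NT libraries for 46, 46 and 45 of the 47 members in that order, where 20.8%, 19.4% and 20.8% of all genes were so. Both were above both NT libraries for 0 members in each (20%, 17.3% and 20.1% of all genes).

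These counts shrank when a library was left out, with no member called higher in any of these fits. For KAT2A_KD the count was 17 without KAT2A_KD replicate 1, 13 without KAT2A_KD replicate 2, 19 without NT replicate 1 and 15 without NT replicate 2. For KAT2B_KD it was 11 and 17 without KAT2B_KD replicates 1 and 2 and 18 without NT replicate 2. For KAT2AB_KD it was 14 and 18 without KAT2AB_KD replicates 1 and 2 and 18 without NT replicate 2. DESeq2 called 37, 42 and 37 members.

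Among the sensors, DDX58 (RIG-I, which detects viral RNA ends) stood at 43.9 and 47.7 CPM in NT at Confluent. It was at 7.77 and 9.68 CPM in KAT2A_KD, 4.08 and 4.53 in KAT2B_KD and 10.9 and 7.84 in KAT2AB_KD. No knockdown library came near the NT libraries, and the log2 fold changes were -3.41 in KAT2B_KD (SE 0.31, adjusted p = 1.18e-05 by edgeR) and -2.28 in KAT2AB_KD (SE 0.28, adjusted p = 8.97e-05). IFIH1 (MDA5, which detects long double-stranded RNA) was at 20.7 and 33.6 CPM in NT, 8.65 and 8.39 in KAT2A_KD, 7.27 and 10.4 in KAT2B_KD and 10.2 and 13.4 in KAT2AB_KD. Of the 5 sensors, 4, 4 and 5 were lower in KAT2A_KD, KAT2B_KD and KAT2AB_KD.

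Of the 8 signalling and transcription genes, 5, 4 and 5 were lower in that order. IRF9 stood at 55.9 and 50.9 CPM in NT, 18.2 and 18.5 in KAT2A_KD, 18.2 and 12.7 in KAT2B_KD and 19.6 and 23.1 in KAT2AB_KD, so that its NT libraries were above every knockdown library. STAT2, a partner of IRF9 in ISGF3, did not pass in any of the 3 (42.3 and 54.2 CPM in NT, 20.5 to 29.6 CPM in the 6 knockdown libraries, adjusted p = 0.0912, 0.0841 and 0.0622 by edgeR), although the libraries did not overlap.

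Of the 9 effectors acting on RNA, 5, 8 and 6 were lower. IFIT1 reached 67.4 and 78.9 CPM in NT but only 5.77 and 7.10 in KAT2A_KD, 3.56 and 4.34 in KAT2B_KD and 6.87 and 10.2 in KAT2AB_KD (log2 fold changes -3.51, -4.21 and -3.10, adjusted p = 8.29e-05, 1.33e-05 and 7.22e-05 by edgeR). IFIT3 was at 82.3 and 79.2 CPM in NT and between 8.16 and 13.8 CPM in the 6 knockdown libraries (log2 fold changes -2.83, -3.14 and -2.59). For both genes the NT level was several times that of the highest knockdown library. OAS1, which makes the oligoadenylates that activate RNase L, reached 36.7 and 52.8 CPM in NT, 7.45 and 4.63 in KAT2A_KD, 3.12 and 5.40 in KAT2B_KD and 9.31 and 10.5 in KAT2AB_KD.

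The antiviral GTPases and their neighbours in function showed the widest differences. MX1 stood at 353 and 350 CPM in NT and at 23.9 and 27.4 in KAT2A_KD, 15.7 and 18.8 in KAT2B_KD and 34.5 and 41.9 in KAT2AB_KD. The log2 fold changes were -3.78 (SE 0.43) and -4.35 (SE 0.45) in the single knockdowns (adjusted p = 8.67e-05 and 2.04e-05 by edgeR), and -3.20 in KAT2AB_KD (adjusted p = 0.000148). MX2 stood at 84.5 and 102 CPM in NT and at 3.36 and 5.59 in KAT2A_KD, 2.52 and 5.11 in KAT2B_KD and 7.30 and 5.69 in KAT2AB_KD, with log2 fold changes of -4.40 in KAT2A_KD and -3.84 in KAT2AB_KD.

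IFI44, a GTP-binding protein, was at 28.3 and 39.2 CPM in NT and between 1.48 and 3.81 CPM in the 6 knockdown libraries (log2 fold changes -3.69, -4.47 and -3.18). For MX1 and IFI44 the 2 KAT2B_KD libraries were the lowest of the 6. RSAD2 (viperin, which makes a chain-terminating nucleotide) was at 7.46 and 16.6 CPM in NT and between 0.160 and 0.899 CPM in the knockdowns. CMPK2, the nucleotide kinase beside it in the genome, was at 6.36 and 9.68 CPM in NT and between 0 and 0.753 CPM in the knockdown libraries. KAT2B_KD and KAT2AB_KD had 2 reads of CMPK2 each over both libraries, so no fold is given for them.

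Among the membrane and mitochondrial proteins, 6, 6 and 5 of 6 were lower. IFI27 was at 86.5 and 146 CPM in NT, 16.7 and 11.3 in KAT2A_KD and 12.5 and 11.5 in KAT2B_KD, but 43.1 and 51.4 in KAT2AB_KD, which lay between. IFI6 was at 221 and 369 CPM in NT and between 15.5 and 51.2 CPM in the 6 knockdown libraries. ISG15 itself was at 130 and 157 CPM in NT, 18.3 and 16.2 in KAT2A_KD, 16.5 and 16.8 in KAT2B_KD and 16.6 and 30.4 in KAT2AB_KD, and 3, 4 and 3 of the 4 genes of its conjugation were lower.

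The ADP-ribosylation genes (PARP9 with its partner DTX3L, PARP12 and PARP14) had 1, 3 and 0 of 4 members lower. Of the 5 other restriction and secreted proteins 1, 0 and 2 were lower. SP100 was level across genotypes, at 144 and 119 CPM in NT and between 119 and 155 CPM in the 6 knockdown libraries, with a log2 fold change of 0.15 in KAT2A_KD (SE 0.19). LGALS3BP, a secreted glycoprotein, was at 237 and 243 CPM in NT and between 138 and 183 CPM in the knockdowns, below NT in each library, without a call. The calls of IFIT1, IFIT3 and IFI44 in all 3 knockdowns, of MX1 in the single knockdowns, of MX2 in KAT2A_KD and KAT2AB_KD and of DDX58 in KAT2B_KD and KAT2AB_KD held without any 1 of the compared libraries (largest adjusted p = 0.00959 by edgeR).

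**Figure D3:**
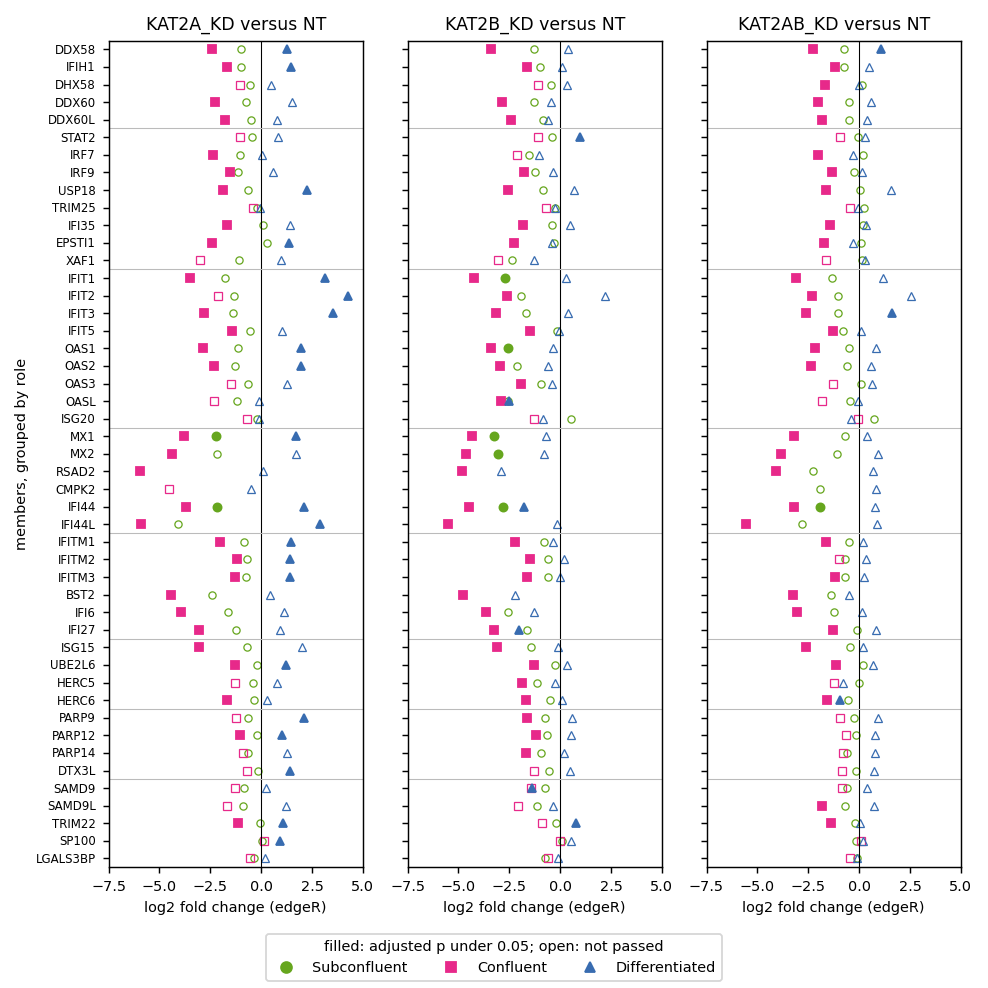
Log2 fold change of each member in each knockdown against NT, from the edgeR fit, at Subconfluent (circles), Confluent (squares) and Differentiated (triangles); filled symbols passed at an adjusted p under 0.05. Values of members with 3 or fewer reads in a group are not drawn; the squares lie to the left in all 3 panels (30, 34 and 32 members lower), and the triangles lie to the right in KAT2A_KD (21 higher).

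At Subconfluent the same direction was seen with few calls. KAT2A_KD had 2 members lower and 0 higher (0.343% of all genes passed, 0.0762% lower and 0.267% higher), KAT2B_KD 5 lower and 0 higher (0.0888%, 0.0698% lower and 0.019% higher) and KAT2AB_KD 1 lower and 0 higher (2.7%, 0.838% lower and 1.86% higher), again against shared NT libraries. The medians were -0.74, -1.0 and -0.48 log2, against -0.01, -0.01 and 0.00 for all genes. Both knockdown libraries were below both NT libraries for 40, 39 and 31 members, where 18.6%, 14.6% and 25.2% of all genes were so. DESeq2 called 8, 14 and 4 members. The edgeR counts fell to 0 without KAT2A_KD replicate 1, KAT2A_KD replicate 2 or NT replicate 1 for KAT2A_KD, and likewise for the corresponding 3 libraries for KAT2B_KD and for KAT2AB_KD, and KAT2A_KD kept a count of 1 without NT replicate 2.

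At this stage MX1 read 58.0 and 31.3 CPM for NT, 9.03 and 10.2 for KAT2A_KD, 4.18 and 5.22 in KAT2B_KD and 28.5 and 27.3 in KAT2AB_KD. All knockdown libraries were below both NT libraries, those of KAT2AB_KD just below, and the log2 fold changes were -2.22 in KAT2A_KD (SE 0.42, adjusted p = 0.0206 by edgeR), -3.24 in KAT2B_KD (SE 0.45, adjusted p = 0.00368) and -0.68 in KAT2AB_KD (adjusted p = 0.451). IFI44 was at 8.39 and 6.95 CPM in NT, 1.24 and 2.27 in KAT2A_KD, 1.29 and 0.914 in KAT2B_KD and 2.32 and 1.76 in KAT2AB_KD, and passed in all 3 (-2.16, -2.80 and -1.91). In KAT2B_KD, IFIT1 (1.45 and 1.70 CPM against 12.4 and 8.16), MX2 (1.07 and 1.5 against 14.4 and 6.87) and OAS1 (1.67 and 1.57 against 10.4 and 8.59) were lower too (log2 fold changes -2.70, -3.04 and -2.55).

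None of these calls was kept without either knockdown library or without NT replicate 1, for MX1, IFIT1, IFI44, MX2 and OAS1 alike (adjusted p up to 0.483 by edgeR), and IFI44 in KAT2A_KD and OAS1 in KAT2B_KD were also lost without NT replicate 2. RSAD2 had 0 reads in both Subconfluent libraries of KAT2A_KD and of KAT2B_KD, which allows up to 0.107 and 0.105 CPM at 3 reads over the group, and stood at 1.52 and 0.687 CPM in NT. Intervals of this kind cover counting error only.

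In differentiated cultures the KAT2A_KD cells stood on the opposite side of NT. There 21 members were higher and 0 lower (1.22% of all genes passed, 0.92% higher), with a median of 1.23 log2 against 0.01 for all genes, and both KAT2A_KD libraries were above both NT libraries for 40 of 47 members (22.6% of all genes). The members that passed included DDX58 and IFIH1 among the sensors, USP18 and EPSTI1 in signalling, 5 of the 9 effectors on RNA (IFIT1, IFIT2, IFIT3, OAS1 and OAS2), MX1, IFI44 and IFI44L, the IFITM genes, UBE2L6, PARP9, PARP12 and DTX3L, TRIM22 and SP100. Of the 30 members that were lower in KAT2A_KD at Confluent, 17 were higher at Differentiated, in comparisons that share no library. The same overlap over all genes was not counted.

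IFIT3 stood at 2.45 and 1.41 CPM in Differentiated NT cells and at 30.2 and 15.1 CPM in KAT2A_KD. Both knockdown libraries were far above NT but differed from each other, and the log2 fold change was 3.54 (SE 0.38, adjusted p = 4.70e-05 by edgeR). IFIT1 stood at 2.89 and 3.87 CPM against 38.1 and 20.4 CPM (log2 fold change 3.11, SE 0.40, adjusted p = 0.000538). IFIT2 stood at 0.350 and 0.189 CPM against 8.02 and 2.78 CPM (4.27), PARP9, a mono-ADP-ribosyltransferase family member, at 7.10 and 6.03 against 30.7 and 25.2 CPM (2.09), and IFI44 at 6.13 and 4.34 against 23.2 and 22.6 CPM (2.13).

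IFIT3 and IFIT1 held without any 1 library, with adjusted p-values of at most 0.00919 and 0.0260. IFIT2 and IFI44 were lost without KAT2A_KD replicate 1 or NT replicate 2 (adjusted p up to 0.121 and 0.146 by edgeR), and PARP9 without KAT2A_KD replicate 1, NT replicate 1 or NT replicate 2 (up to 0.138). The count of 21 members was 2 without KAT2A_KD replicate 1, 10 without KAT2A_KD replicate 2, 6 without NT replicate 1 and 2 without NT replicate 2, all higher. DESeq2 called 27. A list of 8 differentiation genes, chosen after these data were seen, summed to 18916 to 30858 CPM in the KAT2A_KD libraries of this stage and 39959 to 49630 CPM in NT, and to 20770 to 28182 in KAT2B_KD and 19619 to 25529 in KAT2AB_KD, and its part in the result was not tested.

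KAT2B_KD did not show this shift, and the 2 libraries of KAT2AB_KD stood on either side of NT. Their levels over the members were 3.46 and 4.42, against 3.76 and 3.53 in NT. Log2 fold changes were positive for 38 members and negative for 9 in KAT2AB_KD, and for 19 and 28 in KAT2B_KD. KAT2B_KD had 2 members higher and 4 lower (4.85% of all genes passed, 1.67% higher and 3.18% lower), with a median of -0.24 log2 against 0.02, and KAT2AB_KD 2 higher and 1 lower (2.74%, 1.57% higher and 1.17% lower), with a median of 0.39 against 0. Both libraries were above both NT libraries for 9 members in KAT2B_KD and 13 in KAT2AB_KD (20.6% and 21.9% of all genes) and below both for 14 and 5 (22.7% and 19.7%). In KAT2B_KD, IFI27 was at 58.5 and 36.1 CPM against 144 and 235 in NT (log2 fold change -2.00, adjusted p = 0.00170 by edgeR), and this held without any 1 library (at most 0.0299). SAMD9 (32.3 and 41.5 CPM against 107 and 83.2), IFI44 (1.68 and 1.42 against 6.13 and 4.34) and OASL, an OAS relative without synthase activity (1.03 and 0.598 against 3.33 and 6.03), were lower as well, with log2 fold changes of -1.36, -1.76 and -2.53.

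The 2 that were higher in KAT2B_KD were STAT2 (42.0 and 33.6 CPM against 22.9 and 15.5, log2 fold change 0.98) and TRIM22, a ubiquitin ligase that restricts retroviruses (50.04 and 42.1 against 30.1 and 24.2, 0.76). SAMD9 and IFI44 were lost without either KAT2B_KD library or NT replicate 1 (adjusted p up to 0.151 and 0.165 by edgeR), OASL and STAT2 without either KAT2B_KD library or NT replicate 2 (0.216 and 0.312), and TRIM22 without any of the 4 (0.296). The count of 6 members was 2 and 1 without KAT2B_KD replicates 1 and 2 and 3 without either NT library.

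In KAT2AB_KD, IFIT3 (3.79 and 8.29 CPM against 2.45 and 1.41, log2 fold change 1.64) and DDX58 (21.0 and 28.7 against 14.1 and 9.52, 1.07) were higher and HERC6 (9.56 and 16.9 against 27.4 and 23.8, -0.95) lower. In each the second KAT2AB_KD library had the larger value. IFIT3 was lost without KAT2AB_KD replicate 2 or either NT library (adjusted p up to 0.281 by edgeR), HERC6 without KAT2AB_KD replicate 1 or either NT library (0.306), and DDX58 without any of the 4 (0.379). The count of 3 became 4 higher and 0 lower without KAT2AB_KD replicate 1, 0 higher and 1 lower without KAT2AB_KD replicate 2, and 0 without either NT library.

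The stage changes were also counted within each knockdown. From Subconfluent to Confluent, where 22 members rose in NT, edgeR called 0 members in KAT2A_KD (0.235% of all genes passed), 1 in KAT2B_KD (1.61%) and 0 in KAT2AB_KD (0.609%). At an unadjusted p under 0.05 there were 5, 14 and 8 members, and DESeq2 called 1, 3 and 0. Log2 fold changes were positive for 43, 37 and 35 members and negative for 4, 10 and 12, with medians of 0.50, 0.46 and 0.27 log2. Both Confluent libraries were above both Subconfluent libraries for 21, 23 and 21 members (17.5%, 20.6% and 19.9% of all genes). They were below both for 1, 4 and 4 (19.7%, 21.6% and 19.2%). The member in KAT2B_KD was MX1, from 4.18 and 5.22 to 15.7 and 18.8 CPM (log2 fold change 1.87, adjusted p = 0.0342), lost without any 1 of its 4 libraries (up to 0.270). This change was compared directly between each knockdown and NT. It passed for 0 members in each of the 3 by edgeR (0% of all genes), with 21, 20 and 28 members at an unadjusted p under 0.05, 1, 1 and 0 by DESeq2, and medians of -1.08, -0.91 and -1.31 log2 (-1.16 and -0.92 for the single knockdowns with RSAD2 at its bound). A different response to confluence was therefore not shown member by member.

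From Subconfluent to Differentiated, KAT2A_KD had 31 members higher and 1 lower (45.5% of all genes passed, 22.3% higher and 23.2% lower). KAT2B_KD had 19 higher and 6 lower (42.6%, 20.7% higher and 21.9% lower) and KAT2AB_KD 17 higher and 6 lower (47.9%, 23.5% higher and 24.4% lower). The total of 23 of 47 in KAT2AB_KD is near the background, and that of 25 of 47 in KAT2B_KD is somewhat above it. The medians in KAT2A_KD, KAT2B_KD and KAT2AB_KD were 1.56, 0.49 and 0.30 log2, against -0.50 in NT. The 8 members that rose in NT over this interval all rose in KAT2A_KD, where the libraries are separate. Of the 18 that fell in NT, 6 rose in KAT2A_KD (IFIT1, IFIT3, OAS2, PARP9, PARP14 and IFITM3), 1 fell (SP100) and 11 did not pass. Of the 21 that did not pass in NT, 17 rose in KAT2A_KD. Over all genes 24% rose in NT and 22.3% in KAT2A_KD, and how many of all genes shared a call between these 2 genotypes was not counted.

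In KAT2A_KD, IFI27 went from 9.09 and 14.1 CPM at Subconfluent to 339 and 388 CPM at Differentiated (log2 fold change 4.98, SE 0.39, adjusted p = 4.32e-09 by edgeR), and IFI6 from 8.47 and 17.0 to 408 and 647 CPM (5.38). Neither gene's libraries overlap between the stages. IRF9 rose by 2.71 log2 (10.4 and 10.3 to 64.6 and 71.0 CPM), EPSTI1 by 2.77 (3.15 and 2.44 to 21.3 and 17.2) and SAMD9 by 3.14 (13.7 and 11.8 to 110 and 115). SP100 fell by 0.90 log2 (129 and 148 to 77.5 and 71.1 CPM). These 6 calls held without any 1 library.

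IFI27 and IFI6 also rose in KAT2B_KD (2.42 and 3.88 log2) and in KAT2AB_KD (3.76 and 4.0 log2), and SP100 fell in both (log2 fold changes -1.31 and -1.42), each also without any 1 library. Of the members that fell, KAT2B_KD had IFIT3 (7.91 and 6.01 to 2.62 and 2.47 CPM, log2 fold change -1.45), which held. Its falls in IFIT5, IFI35, IFITM2 and IFITM3 (-1.15, -1.02, -0.81 and -0.83) were lost without KAT2B_KD Subconfluent replicate 1, and the last 3 also without KAT2B_KD Differentiated replicate 2 (adjusted p up to 0.342 by edgeR). KAT2AB_KD had falls in HERC5, the main ISG15 ligase (4.78 and 5.83 to 0.906 and 1.29 CPM, -2.26), and in IFI35 (-1.76), which held. Those of IFIT3, DTX3L and TRIM25, a ligase acting on RIG-I (-0.81, -0.86 and -1.05), were lost without KAT2AB_KD Differentiated replicate 1 or Subconfluent replicate 1 (up to 0.479), and IFIT3 and DTX3L also without Subconfluent replicate 2. Without KAT2AB_KD Differentiated replicate 2, the counts were 9 higher and 12 lower in place of 17 and 6.

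Tested directly, the change between Subconfluent and Differentiated cells differed from that of NT for 18 members in KAT2A_KD, all higher (0.463% of all genes passed), 1 in KAT2B_KD (0.33%) and 5 in KAT2AB_KD (2%). All 3 share the NT libraries. The medians of the difference were 2.09, 0.91 and 0.92 log2, against 0.03, 0.04 and 0.00 for all genes (0.90 for KAT2B_KD with RSAD2 at its bound). For IFIT3, NT went from 21.8 and 22.2 to 2.45 and 1.41 CPM while KAT2A_KD went from 8.29 and 8.57 to 30.2 and 15.1 CPM, a difference of 4.92 log2 (SE 0.50, adjusted p = 7.52e-05 by edgeR). The directions of the 2 genotypes were opposite, with no exception among these libraries. The differences were 4.89 log2 for IFIT1, 4.28 for IFI44, 3.91 for MX1 and 5.62 for IFIT2, and of these 5 only IFIT2 was lost, without NT Differentiated replicate 2 (adjusted p = 0.0631).

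The count of 18 in KAT2A_KD was 10 without KAT2A_KD Differentiated replicate 1, 7 and 11 without KAT2A_KD Subconfluent replicates 1 and 2, 4 without NT Differentiated replicate 2 and 9 without NT Subconfluent replicate 1. The 1 member in KAT2B_KD was IFIT1 (2.98 log2, adjusted p = 0.0341 by edgeR), lost without 7 of the 8 libraries (up to 0.133), all but KAT2B_KD Differentiated replicate 2. The 5 in KAT2AB_KD were IFIT3 (2.69), IFI44 (2.70), DDX58 (1.80), IFIT1 (2.5) and IFIT2 (3.61). Its count was 8 without KAT2AB_KD Differentiated replicate 1, 1 without replicate 2, 2 and 1 without KAT2AB_KD Subconfluent replicates 1 and 2, 3 and 0 without NT Differentiated replicates 1 and 2, and 1 and 3 without NT Subconfluent replicates 1 and 2. All of its 5 calls were lost without NT Differentiated replicate 2 (adjusted p up to 0.199).

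**Figure D4:**
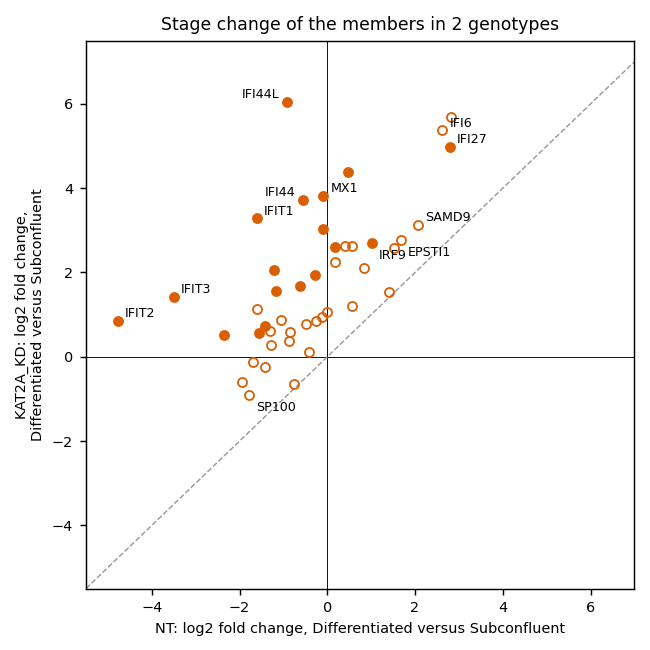
Log2 fold change from Subconfluent to Differentiated in NT (x axis) and in KAT2A_KD (y axis) for 45 members; 2 with 3 or fewer reads in a group are not drawn. Filled points passed the test of the difference between genotypes (18 members in all), and the dashed line marks equal change; the points lie above it, IFIT3 and IFIT1 in the upper left and IFI6 and IFI27 in the upper right.

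**Figure D5:**
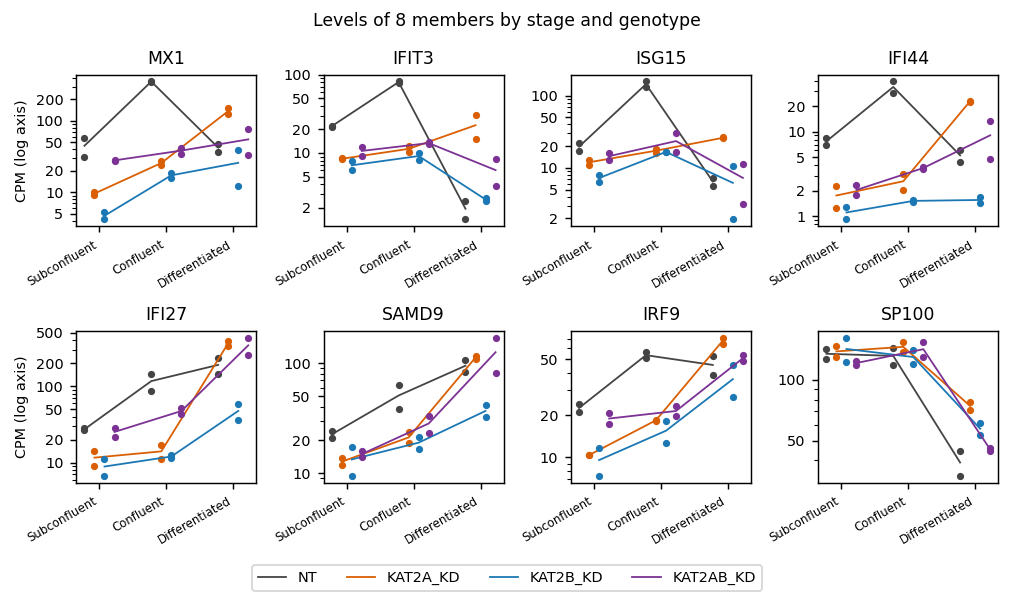
CPM (log axis) of 8 members by stage, with a point for each library and lines through the mean of the 2 libraries of a group. MX1, IFIT3, ISG15 and IFI44 peak at Confluent in NT, IFI27 and SAMD9 are highest at Differentiated in each of the 4 genotypes, and SP100 is level before differentiation.

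KAT2A_KD was also compared with KAT2B_KD. By edgeR 0 members passed at Subconfluent (0.533% of all genes passed) and 0 at Confluent (0.286%), with 4 and 3 at an unadjusted p under 0.05 and 0 and 0 by DESeq2. Both KAT2A_KD libraries were nevertheless above both KAT2B_KD libraries for 24 and 18 of the 47 members (16.9% and 19.1% of all genes), and below both for 1 and 2 (14.2% and 17.9%). KAT2AB_KD against KAT2A_KD gave 0 at Subconfluent (0% of all genes) and 0 at Confluent (0.00635%), with 8 and 2 at an unadjusted p under 0.05 and 0 and 1 by DESeq2. These counts do not show that the genotypes were alike. KAT2AB_KD against KAT2B_KD gave 4 members higher at Subconfluent (2.61% of all genes passed), MX1 (2.56 log2), OAS1 (2.07), IFI27 (1.51) and IRF9 (0.99), and IFI27 alone at Confluent (1.97 log2, 1.61%).

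For MX1 the Subconfluent values were 28.5 and 27.3 CPM in KAT2AB_KD and 4.18 and 5.22 in KAT2B_KD, clearly apart, and the call was lost without KAT2B_KD replicate 1 (adjusted p = 0.0541 by edgeR). OAS1 and IFI27 at Subconfluent were lost without any 1 library (up to 0.140 and 0.213), IRF9 without KAT2AB_KD replicate 1 or 2 or KAT2B_KD replicate 2 (up to 0.290), and IFI27 at Confluent without either KAT2B_KD library (up to 0.0660). The count of 4 at Subconfluent was 2 without KAT2AB_KD replicate 1 and 1 without any of the other 3 libraries.

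At Differentiated the single knockdowns separated. KAT2A_KD was above KAT2B_KD in 19 members and below in 0 (2.38% of all genes passed), with a median of 1.54 log2 against 0. IFI44 stood at 23.2 and 22.6 CPM in KAT2A_KD and 1.68 and 1.42 in KAT2B_KD (log2 fold change 3.88, SE 0.43, adjusted p = 2.91e-05 by edgeR). IFIT3 (30.2 and 15.1 against 2.62 and 2.47 CPM) differed by 3.15 log2, IFI27 (339 and 388 against 58.5 and 36.1) by 2.94, IFIT1 (38.1 and 20.4 against 5.05 and 3.21) by 2.83 and EPSTI1 (21.3 and 17.2 against 6.27 and 5.08) by 1.77. In all 5 the libraries were well apart and the call held without any 1 of them. The count was 11 without KAT2A_KD replicate 1 and 11 without KAT2B_KD replicate 2.

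KAT2AB_KD was below KAT2A_KD in 5 members (0.317% of all genes passed) with a median of -0.79 log2 against 0. These were EPSTI1 (6.34 and 5.55 against 21.3 and 17.2 CPM, -1.70), IFIT3 (-1.90), IFIT1 (-1.94), HERC6 (-1.26) and TRIM22 (-1.01). All 5 were lost without KAT2AB_KD replicate 1 or KAT2A_KD replicate 1, EPSTI1 also without KAT2AB_KD replicate 2, and HERC6 and TRIM22 also without KAT2A_KD replicate 2 (adjusted p up to 0.284 by edgeR). The count was 0 without KAT2A_KD replicate 1 or KAT2AB_KD replicate 1, 3 without KAT2A_KD replicate 2 and 11 without KAT2AB_KD replicate 2.

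Against KAT2B_KD, KAT2AB_KD had 8 members higher and 2 lower, where 11% of all genes passed (6.5% higher and 4.54% lower). IFI27 (254 and 428 CPM against 58.5 and 36.1) was higher by 2.85 log2, IFI44 (4.70 and 13.4 against 1.68 and 1.42) by 2.55 and SAMD9 (81.5 and 170 against 32.3 and 41.5) by 1.77, all kept without any 1 library. MX2 was higher by 1.71 log2, and lost without KAT2AB_KD replicate 2 or KAT2B_KD replicate 2 (adjusted p up to 0.213 by edgeR). HERC6 and TRIM22 were lower (log2 fold changes -1.02 and -0.72), and lost without KAT2AB_KD replicate 1 or KAT2B_KD replicate 1 (up to 0.260). The count was 18 without KAT2AB_KD replicate 1, 6 without KAT2AB_KD replicate 2 and 5 without KAT2B_KD replicate 2.

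The other genes of the pathway were counted from lists of 98 genes, of which 91 were in the table and 62 were tested. Against NT, edgeR called 0, 0 and 2 of the 62 at Subconfluent in KAT2A_KD, KAT2B_KD and KAT2AB_KD, 1, 2 and 1 at Confluent, and 3, 1 and 1 at Differentiated. Over all genes 0.343%, 0.0888% and 2.7% passed at Subconfluent, 0.647%, 0.463% and 2.28% at Confluent, and 1.22%, 4.85% and 2.74% at Differentiated, and the counts for KAT2AB_KD, and that for KAT2B_KD at Differentiated, are near or under these shares. SAMHD1, which depletes nucleotides, was lower in KAT2B_KD at Confluent (20.03 and 18.5 CPM against 58.3 and 80.3, log2 fold change -1.84) and higher in KAT2A_KD at Differentiated (10.5 and 9.97 against 4.29 and 1.51, 1.80), and EIF2AK2, the RNA-dependent kinase PKR, was higher in KAT2A_KD at Differentiated (31.9 and 25.5 against 13.3 and 10.2, 1.29). Further calls were GBP4 higher and TBK1 lower in KAT2AB_KD at Subconfluent (1.52 and -0.99 log2), IFI16 higher in KAT2B_KD at Differentiated (0.81) and TMEM173, encoding STING, higher in KAT2AB_KD at Differentiated (1.88). These single calls outside the members were not followed through the left-out libraries. At Confluent, the receptors and kinases together stood at 641 to 698 CPM in NT and 421 to 477 in the knockdowns. The nucleic acid sensors and adaptors outside the members stood at 634 to 653 and 438 to 551 CPM. The sums of each remaining list overlapped those of NT in at least 1 knockdown. No test was made of these sums.

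The interferons themselves were scarcely read. Of 21 ligand genes in the table only IFNE and IFNW1 passed the filter on low counts, and all 21 together held 0.557 to 6.39 CPM per library. IFNB1 had 4 reads in 3 of the 24 libraries, and IFNK 57 reads in 13 libraries. IFNK was highest in the KAT2A_KD Differentiated libraries, at 1.56 and 0.898 CPM, and at 0.263 and 0.283 CPM in NT of that stage and 0.0785 and 0 CPM in NT at Confluent. It did not pass the filter and was not tested. The 21 ligands together stood at 2.25 to 6.39 CPM in the Differentiated libraries, those of NT at 3.77 to 5.34, and at most 1.85 CPM in the Subconfluent and Confluent libraries. CXCL10, a chemokine induced by interferon, stood at 2.12 and 4.70 CPM in NT at Confluent and at most 1.19 CPM in the other 22 libraries.

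Some members have uncertain counts. IFITM2 and IFITM3 are near-identical copies, and their counts stood at a ratio of 0.803 to 0.961 in all 24 libraries. Reads may be shared between them, which was not checked, so the 2 are not taken as independent. Several members lie next to each other in the genome (13 neighbouring pairs, among them IFI44L with IFI44, MX2 with MX1, CMPK2 with RSAD2 and PARP9 with DTX3L). Whether the counting used strand is not given in the sources used here, so reads from overlapping neighbours cannot be assigned. Calls of 26 members with a motif match and 11 without one, at Confluent against NT, were 18 and 5 in KAT2A_KD, 22 and 5 in KAT2B_KD and 17 and 7 in KAT2AB_KD, with medians of -1.90 and -1.66, -2.26 and -1.78, and -1.47 and -1.42 log2, given without a test.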

How the data were processed

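The deposited table of raw counts gives whole reads per gene, and per the submitters' processing notes the tools named are Bowtie2, FastQC, DESeq2 and featureCounts, and the authors' genome build is hg19; versions, annotation, strand setting and the treatment of multi-mapping reads are not given in the sources used here. A deposited table of normalized signal equals these counts divided by one size factor per library (largest relative deviation 4.98e-07) and served to check the scaling. Another deposited table gives each library's genotype, stage and replicate number (2 or 3, here replicate 1 and 2). A further column of counts (1 in all) had no matching sample and was left aside.

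The counts went into edgeR 4.0.16 (R 4.3.3): filterByExpr by group (15757 of 21173 genes with reads), TMM factors, and a quasi-likelihood fit of 12 groups and 24 libraries without covariates (12 residual degrees of freedom, common biological coefficient of variation 0.218). P-values were adjusted by Benjamini-Hochberg over all genes within each of 33 comparisons, with a threshold of 0.05. Pearson's r across genes between the libraries of a group was 0.963 to 0.981 (genes are not independent replicates). The difference between replicates correlated between groups with a median r of 0.118, over 0.1 in 37 of 66 pairs, so replicate numbers were not taken to pair libraries. Alternatives were RLE factors, DESeq2 1.42.0, no filter on low counts, a replicate block, a fit without the NT Confluent libraries, and leaving out each library.

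The members and lists were chosen with earlier results of these data known. In each comparison, values and tests are given for up to 5 members with the lowest p among those that passed with libraries that do not overlap, and for any that passed against the majority; further members are given as levels or counts. Floors are 3 reads over a group. Single members without a test value in the text were not followed through the left-out libraries. A single gene of the pathway lists, included in their counts, is not reported by name here.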

Additional observations from a re-analysis of the deposited data

Results flagged for a closer look

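The change from Subconfluent to Differentiated differed between a knockdown and NT by a direct test of that difference (edgeR, adjusted p under 0.05 over all genes) for 18 members in KAT2A_KD, 1 in KAT2B_KD and 5 in KAT2AB_KD. In all of them the log2 change was higher in the knockdown, which is not the same as a higher level at Differentiated. MX2, IRF9 and IFI27 in KAT2A_KD, IFIT1 in KAT2B_KD, and IFI44, IFIT1 and IFIT2 in KAT2AB_KD did not pass against NT at that stage. The 3 tests share the NT libraries, and groups of 2 libraries were too small for a check of single outlying values. In log2, the differences in KAT2A_KD were IFIT3 (4.92), IFIT1 (4.89), IFI44 (4.28), MX1 (3.91), IFIT2 (5.62), IFI44L (6.98), MX2 (3.91), OAS2 (3.28), IFITM2 (2.13), IFITM1 (2.30), DDX58 (2.23), IFITM3 (2.14), OAS1 (3.12), PARP9 (2.73), IFIH1 (2.42), USP18 (2.87), IRF9 (1.69) and IFI27 (2.18). In KAT2AB_KD they were IFIT3 (2.69), IFI44 (2.70), DDX58 (1.80), IFIT1 (2.5) and IFIT2 (3.61), and in KAT2B_KD the difference was IFIT1 (2.98). Reads of IFITM2 and IFITM3 cannot be told apart with certainty.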

How the results depend on the processing

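Of 117 single-gene results, 68 passed without each library in turn, 49 were lost without at least 1, and 0 reversed; the replicate block lost 1 and DESeq2 lost 1, both IFIT3 from Subconfluent to Differentiated in KAT2AB_KD (adjusted p = 0.0505 and 0.0619). With 2 libraries a group, leaving one out rests on the assumption that the lone library varies like the other groups. RLE factors moved no member count by over 1.5 times. Counts of members under DESeq2 that moved by more were 8 (KAT2A_KD versus NT at Subconfluent), 14 (KAT2B_KD versus NT at Subconfluent), 4 (KAT2AB_KD versus NT at Subconfluent), 6 (KAT2AB_KD versus NT at Differentiated), 1 (Confluent versus Subconfluent in KAT2A_KD), 3 (Confluent versus Subconfluent in KAT2B_KD), 29 (KAT2A_KD versus KAT2B_KD at Differentiated), 1 (KAT2AB_KD versus KAT2A_KD at Confluent), 12 (KAT2AB_KD versus KAT2A_KD at Differentiated), 9 (KAT2AB_KD versus KAT2B_KD at Subconfluent), 2 (KAT2AB_KD versus KAT2B_KD at Confluent), 1 (KAT2A_KD against NT, change between Subconfluent and Confluent), 28 (KAT2A_KD against NT, change between Subconfluent and Differentiated), 1 (KAT2B_KD against NT, change between Subconfluent and Confluent) and 10 (KAT2B_KD against NT, change between Subconfluent and Differentiated). Without the filter on low counts they were 13 (KAT2A_KD versus NT at Subconfluent), 20 (KAT2B_KD versus NT at Subconfluent), 6 (KAT2AB_KD versus NT at Subconfluent), 11 (KAT2B_KD versus NT at Differentiated), 8 (KAT2AB_KD versus NT at Differentiated), 34 (Confluent versus Subconfluent in NT), 1 (Confluent versus Subconfluent in KAT2A_KD), 10 (Confluent versus Subconfluent in KAT2B_KD), 3 (Confluent versus Subconfluent in KAT2AB_KD), 2 (KAT2A_KD versus KAT2B_KD at Subconfluent), 34 (KAT2A_KD versus KAT2B_KD at Differentiated), 3 (KAT2AB_KD versus KAT2A_KD at Subconfluent), 1 (KAT2AB_KD versus KAT2A_KD at Confluent), 19 (KAT2AB_KD versus KAT2A_KD at Differentiated), 15 (KAT2AB_KD versus KAT2B_KD at Subconfluent), 8 (KAT2AB_KD versus KAT2B_KD at Confluent), 20 (KAT2AB_KD versus KAT2B_KD at Differentiated), 8 (KAT2A_KD against NT, change between Subconfluent and Confluent), 29 (KAT2A_KD against NT, change between Subconfluent and Differentiated), 5 (KAT2B_KD against NT, change between Subconfluent and Confluent), 11 (KAT2B_KD against NT, change between Subconfluent and Differentiated), 13 (KAT2AB_KD against NT, change between Subconfluent and Confluent) and 10 (KAT2AB_KD against NT, change between Subconfluent and Differentiated). The replicate block, a fit with the replicate number as a term, moved 1 count, to 3 (Confluent versus Subconfluent in KAT2B_KD), and the numbers were not taken to pair libraries. A fit without the NT Confluent libraries moved 3, to 1 (KAT2AB_KD versus NT at Differentiated), 3 (KAT2AB_KD versus KAT2A_KD at Differentiated) and 0 (KAT2B_KD against NT, change between Subconfluent and Differentiated). With 1 library left out, counts ran 0 to 1 (KAT2A_KD versus NT at Subconfluent), 0 to 4 (KAT2B_KD versus NT at Subconfluent), 0 to 1 (KAT2AB_KD versus NT at Subconfluent), 13 to 19 (KAT2A_KD versus NT at Confluent), 11 to 29 (KAT2B_KD versus NT at Confluent), 14 to 22 (KAT2AB_KD versus NT at Confluent), 2 to 10 (KAT2A_KD versus NT at Differentiated), 1 to 3 (KAT2B_KD versus NT at Differentiated), 0 to 4 (KAT2AB_KD versus NT at Differentiated), 5 to 16 (Confluent versus Subconfluent in NT), 0 to 0 (Confluent versus Subconfluent in KAT2B_KD), 16 to 22 (Differentiated versus Subconfluent in KAT2AB_KD), 11 to 16 (KAT2A_KD versus KAT2B_KD at Differentiated), 0 to 11 (KAT2AB_KD versus KAT2A_KD at Differentiated), 1 to 2 (KAT2AB_KD versus KAT2B_KD at Subconfluent), 0 to 1 (KAT2AB_KD versus KAT2B_KD at Confluent), 5 to 18 (KAT2AB_KD versus KAT2B_KD at Differentiated), 4 to 15 (KAT2A_KD against NT, change between Subconfluent and Differentiated), 0 to 2 (KAT2B_KD against NT, change between Subconfluent and Differentiated), 0 to 8 (KAT2AB_KD against NT, change between Subconfluent and Differentiated). The majority reversed in 2 fits without KAT2AB_KD Differentiated replicate 2, with 1 member (KAT2AB_KD versus NT at Differentiated) and 21 members (Differentiated versus Subconfluent in KAT2AB_KD, 9 higher and 12 lower). Counts over the other pathway lists under DESeq2 were 1 (KAT2B_KD versus NT at Subconfluent), 4 (KAT2AB_KD versus NT at Subconfluent), 3 (KAT2A_KD versus NT at Confluent), 3 (KAT2AB_KD versus NT at Confluent), 5 (KAT2A_KD versus NT at Differentiated), 2 (KAT2B_KD versus NT at Differentiated). DESeq2 moved the share of higher calls over all genes by more than 10 points in several comparisons, for example from 41.2% to 53.1% (KAT2A_KD versus NT at Confluent) and from 76.1% to 63.5% (Confluent versus Subconfluent in NT). The gap of the NT Confluent libraries to the next highest library was 0.52 log2, and 0.47 with the deposited size factors. The causes of these differences were not tested. Depth limits RSAD2, CMPK2, IFI44L and BST2, which had 3 or fewer reads in 1 or more groups.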
